A study of Mus musculus with 8 samples.

Results

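The nuclear genes that bring proteins into mitochondria, fold them there and degrade them were compared between the livers of 4 Pcx L-/- mice and 4 littermate controls after a 24 h fast. Genes were taken by symbol from the protein-coding genes of the GENCODE M21 annotation: every Timm and Tomm gene whose name goes on with a number, plus 19 named chaperones, proteases, peptidase subunits and prohibitins. All 44 such genes were rows of the count table, among 35275 genes in all, and 41 of them passed the filter on low counts. All mice were males of 9 weeks, of the strain C57BL/6 per the labels, and the Pcx allele came from a C57BL/6NTac line crossed to Flpe deleter mice. Pcx L-/- mice carried a floxed exon 10 of Pcx, the gene of pyruvate carboxylase, and Albumin-Cre, which acts in hepatocytes, so the other cells of the liver keep the gene. Controls were Pcx f/f, and the sample labels call them WT. Each library came from 1 mouse.

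Almost every mitochondrial protein is made in the cytosol. The TOM complex of the outer membrane is the common gate, small TIM chaperones escort hydrophobic proteins across the space between the membranes, and the TIM23 complex with its motor, built around the Hsp70 protein mortalin (Hspa9), pulls matrix proteins through the inner membrane. In the matrix the processing peptidase removes the targeting sequence, Hsp60 and Hsp10 (Hspd1 and Hspe1) fold the chain, and proteases such as Lonp1 and the ClpXP complex destroy what is damaged. Hepatocytes are rich in mitochondria, and chaperones and proteases of this set are known targets of the mitochondrial unfolded protein response.

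Counts on these genes ranged from 37303 to 107865 reads per library, of 12016242 to 20023108 reads counted on genes in all. Pcx itself fell from 18936 ± 3249 (SD, n = 4) normalised counts in controls to 681 ± 89.9 (SD, n = 4) in Pcx L-/- liver, and no label was contradicted. Normalised counts are reads divided by a library size scaled with TMM factors and brought to a common size. The factors ran from 0.833 to 0.9423 in controls and from 0.9696 to 1.165 in Pcx L-/- mice, and control mouse 4 had both the fewest reads and the lowest factor. The 6 hepatocyte markers summed to between 1689778 and 2083471 normalised counts in controls and between 959796 and 1464918 in Pcx L-/- liver, with 0 called higher, 2 called lower and a median log2 fold change of -0.68. Red blood cell markers (0 of 5 called) summed to 4747 to 16715 in controls and 6244 to 69307 in Pcx L-/- mice, and macrophage markers (1 of 7 higher) to 4179 to 6149 and 4892 to 6400. Pancreas markers, of which 1 was tested and called higher (0.70), summed to 66.2 to 139 and 151 to 173. Endothelial (0 of 6), stellate (0 of 6) and leukocyte (0 of 4 tested) markers were not called by edgeR or by DESeq2. At an unadjusted edgeR p under 0.05 they gave 2, 0 and 1, and 1 of 5 cholangiocyte markers was lower. The 4 fat markers summed to 0.91 to 7.58 in controls and 3.77 to 9.33 in Pcx L-/- liver. The 4 muscle markers summed to 0 to 6.45 and 0 to 1.53. None of the fat and muscle markers was tested, and Lep of fat and Acta1 of muscle had no read. In bulk tissue, fewer cells of a type and less RNA of the marker genes in each cell cannot be told apart. The part of these markers in the results was not tested.

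Of the 41 genes tested, 16 were higher and 1 was lower in Pcx L-/- liver at an adjusted p under 0.05 (edgeR quasi-likelihood test, Benjamini-Hochberg adjustment across the 13168 genes tested). Over all genes tested, 14.1% were called higher and 13.5% lower. The median log2 fold change of the 41 genes was 0.29, against -0.01 over all genes, and single genes ran from -0.41 (Tomm40l, which stood at -0.05 without control mouse 1) to 1.10 (Lonp1). The fitted change was above 0 in 36 genes and below 0 in 5. In 15 genes every Pcx L-/- mouse lay above every control mouse, and in 0 genes every Pcx L-/- mouse lay below, where over all genes 15.1% separated upwards and 12.5% downwards. Averaged over the 41 genes on the log2 scale and set against the control mean, the mice stood at 0.05, 0.05, 0.06 and -0.16 in controls 1 to 4 and at 0.29, 0.34, 0.24 and 0.37 in Pcx L-/- mice 1 to 4. By role, the presequence translocase and motor gave 6 of 9, the outer membrane translocase 4 of 8 tested, the matrix folding chaperones 3 of 4, the proteases 2 of 8, the small TIM group 1 of 8 tested, and the processing peptidase and the prohibitins 0 of 2 each. DESeq2 also called 0 genes of these last groups, while at an unadjusted edgeR p under 0.05 the prohibitins gave 1 (Phb) and the peptidase 0.

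**Figure D1:**
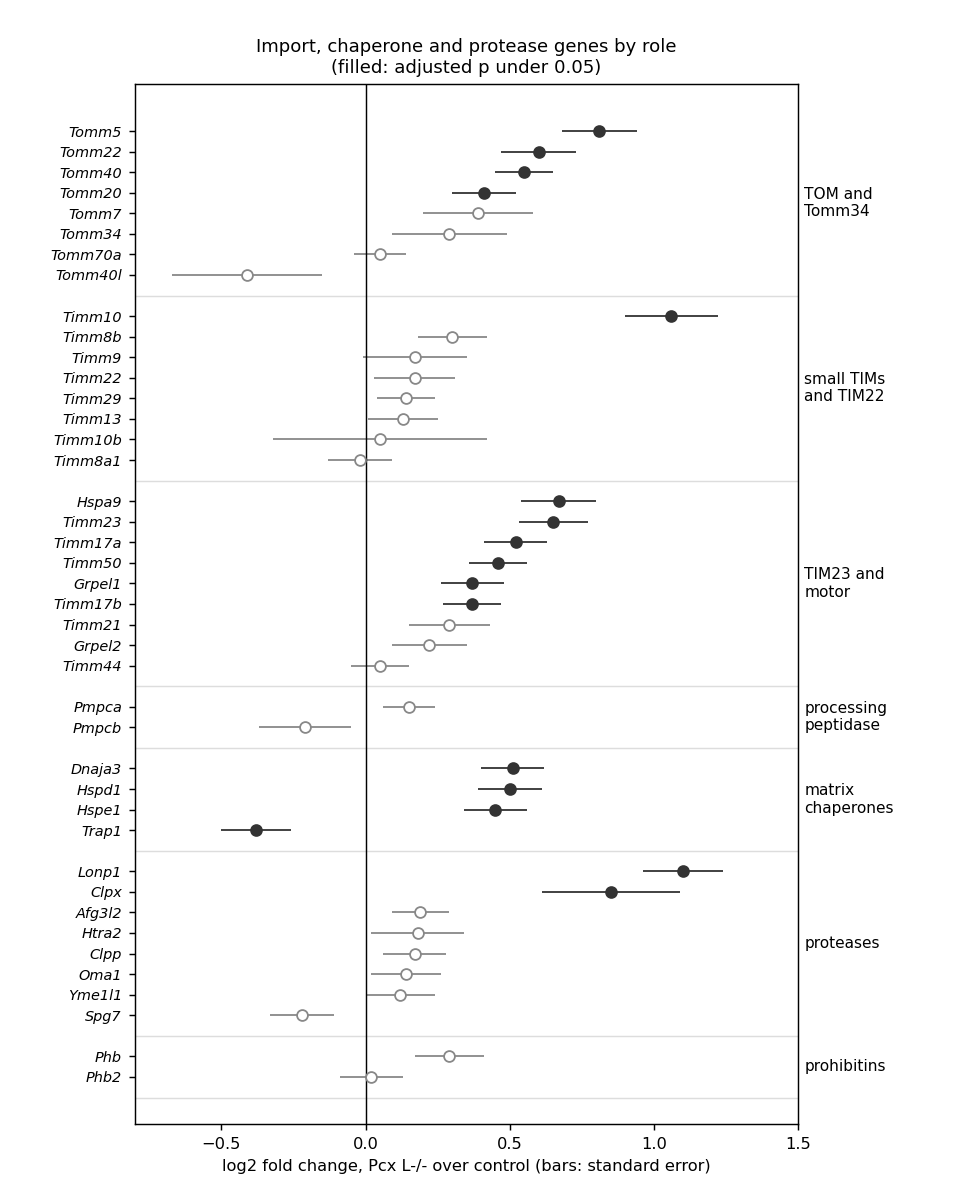
Log2 fold change (Pcx L-/- over control) of the 41 genes tested, one row per gene, grouped by role, with bars for 1 standard error and filled points for an adjusted p under 0.05. Filled points lie right of 0 for 16 genes, from Lonp1 at 1.10 to Grpel1 and Timm17b at 0.37, and left of 0 for Trap1 alone at -0.38.

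The gate of the outer membrane is built around Tomm40, the beta-barrel channel through which nearly all imported proteins pass. Tomm40 had 772, 637, 617 and 655 normalised counts in controls 1 to 4 and 1069, 969, 932 and 959 in Pcx L-/- mice 1 to 4 (log2 fold change 0.55, standard error 0.10, adjusted p = 0.00408). Tomm22, the central receptor that docks preproteins to the channel, had 625, 673, 656 and 458 in controls and 865, 944, 898 and 968 in Pcx L-/- mice (0.60, standard error 0.13, adjusted p = 0.00598). In both genes the groups did not overlap. Tomm5, a small subunit of the channel, showed the largest change of this complex, from 292, 308, 291 and 204 in controls to 476, 479, 459.6 and 515 in Pcx L-/- mice (0.81, standard error 0.13, adjusted p = 0.00187). Control mouse 4 was low in Tomm5, and without it the change was 0.70 (adjusted p = 0.00187). Tomm20, the receptor for presequences, had 1104, 1139, 957 and 1147 in controls and 1320.1, 1466, 1371 and 1601 in Pcx L-/- mice (0.41, standard error 0.11, adjusted p = 0.0161). Its groups did not overlap, yet its call was lost without control mouse 3 (adjusted p = 0.0579) or without Pcx L-/- mouse 4 (adjusted p = 0.0622).

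The other subunits of the outer membrane gate were not called. Tomm70a, the receptor for proteins with internal signals such as metabolite carriers, had 2429.6 ± 83.3 (SD, n = 4) normalised counts in controls and 2507 ± 63.4 (SD, n = 4) in Pcx L-/- liver, a log2 difference of 0.05 (standard error 0.09). The receptors Tomm20 and Tomm70a thus had different calls, but their difference was not tested. Tomm7, a small subunit, stood at 0.39 (standard error 0.19, adjusted p = 0.158), with 539.8, 614, 541 and 278 in controls and 683, 609.9, 643 and 668 in Pcx L-/- mice. Here control mouse 4 lay far below the rest, and Pcx L-/- mouse 2 fell inside the control range, and without control mouse 4 the difference was 0.20. Tomm34, a cytosolic cochaperone of import, had a log2 difference of 0.29 (adjusted p = 0.297), or 0.12 without the same mouse. Tomm40l, the second form of the channel, had 268, 118, 160.2 and 104 in controls and 121, 136, 114 and 123 in Pcx L-/- mice, so controls 1 and 3 lay above all Pcx L-/- mice and controls 2 and 4 among or below them (-0.41, standard error 0.26, adjusted p = 0.267). Without control mouse 1 the Tomm40l difference was -0.05. In the annotation 64.3% of the exonic bases of Tomm40l lie opposite exons of Nr1i3, the gene of a nuclear receptor with 1992 to 4849 normalised counts in controls and 1231 to 2856 in Pcx L-/- liver. Since the use of strand in counting is not given, reads of these neighbours cannot be told apart. The same limit holds for other genes of the set with exons of a neighbour on the opposite strand. Among them were Htra2 (25.6% of exonic bases with 1 neighbour and 18.2% with another), Pmpca (20.4%), Timm8b (15.6%) and Grpel1 (11.6%).

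Tomm6 and Tomm20l could not be tested. The small subunit Tomm6 was listed with 0 reads in all 8 libraries, which allows up to 0.15 to 0.25 CPM per library (3 reads, counting error only). However, 76% of its exonic bases are shared on the same strand with Gm21981, a gene with at most 6.79 normalised counts, and how reads shared by both genes were counted is not given. Tomm20l, a relative of Tomm20, had 2 reads in all, both in Pcx L-/- mice.

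Of the 9 genes of the presequence translocase and its motor, 6 were called higher (14.1% over all genes), among them genes of the channel and of the motor, and differences between groups were not tested. Timm23, the channel itself, had 1163, 1347, 1310.2 and 1366 normalised counts in controls and 1747, 2147, 1866 and 2361 in Pcx L-/- mice (log2 fold change 0.65, standard error 0.12, adjusted p = 0.00365). Timm17a, a partner of the channel with a short-lived product, had 577, 588, 501 and 529.5 in controls and 716, 779, 773 and 893 in Pcx L-/- mice (0.52, standard error 0.11, adjusted p = 0.00511). Its paralogue Timm17b, on the X chromosome, had 682, 682, 609 and 555 in controls and 793, 825, 763 and 894 in Pcx L-/- mice (0.37, standard error 0.10, adjusted p = 0.0231). No Pcx L-/- mouse overlapped a control in any of the 3 genes. Timm50, the receptor that hands presequences to the channel, had 489, 468, 458 and 545 in controls and 674, 721, 605 and 698 in Pcx L-/- mice, again without overlap (0.46, standard error 0.10, adjusted p = 0.00788).

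Hspa9 encodes mortalin, the ATP-driven Hsp70 of the import motor, and stood in controls at 198 ± 12.6 FPKM (SD, n = 4), beside Hspd1 at 195 ± 10.8. Hspa9 had 10323, 10795, 10884 and 13399 normalised counts in controls and 17598, 17758, 18259 and 18728 in Pcx L-/- mice (log2 fold change 0.67, standard error 0.13, adjusted p = 0.00452). The 4 Pcx L-/- mice lay close together, and the highest control was still well below them. Grpel1, the nucleotide exchange factor that resets mortalin, had 2134, 2463, 2272 and 1913 in controls and 2736, 2891, 2682 and 3065 in Pcx L-/- mice (0.37, standard error 0.11, adjusted p = 0.0307). Grpel2, its paralogue, did not separate, with 708, 1027, 880.3 and 682 in controls and 939, 962, 960.4 and 975 in Pcx L-/- mice (0.22, adjusted p = 0.251). Timm44, which tethers mortalin to the channel, stood at 0.05 (standard error 0.10), and Timm21, which links the inner to the outer gate, at 0.29 (standard error 0.14, adjusted p = 0.141). The call of Grpel1 was lost when control mouse 1 or 3 or Pcx L-/- mouse 2, 3 or 4 was left out (adjusted p from 0.0564 to 0.1), and that of Timm17b without control mouse 3 or Pcx L-/- mouse 2 or 4 (0.0598 to 0.0805).

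Small TIM proteins form hexamers of Timm9 with Timm10, or of Timm8 with Timm13, which carry membrane proteins across the intermembrane space. Timm10 rose more than any other import gene, from 286, 286, 261 and 175 normalised counts in controls to 471, 585, 461 and 607 in Pcx L-/- mice (log2 fold change 1.06, standard error 0.16, adjusted p = 0.00143). Control mouse 4 was the lowest here too, and without it the change was 0.93 (adjusted p = 0.00211). Timm9, its partner, had 328, 351, 441 and 212 in controls and 377, 422, 338 and 374 in Pcx L-/- mice, which overlapped (0.17, standard error 0.18, adjusted p = 0.512, and 0.02 without control mouse 4). Timm8b (0.30, adjusted p = 0.08), Timm8a1 (-0.02), Timm13 (0.13), Timm10b (0.05), the carrier translocase channel Timm22 (0.17) and its subunit Timm29 (0.14) were not called. Timm10b was the least abundant gene tested, at 40.6 ± 21.7 (SD, n = 4) normalised counts in controls, with a standard error of 0.37. Timm8a2 had 0 reads in every library.

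In the matrix, the processing peptidase that trims imported precursors was not called in either subunit. Pmpca had 1193 ± 36.8 (SD, n = 4) normalised counts in controls and 1326 ± 68.2 (SD, n = 4) in Pcx L-/- liver, and Pmpcb 1616 ± 339 and 1399 ± 142. Fitted log2 differences were 0.15 (adjusted p = 0.24) and -0.21 (adjusted p = 0.347). The Pmpcb controls ranged widely, with mouse 4 at 1123 and the others from 1708 to 1898. Without that mouse Pmpcb stood at -0.35 and was called lower (adjusted p = 0.0334).

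Of the 4 matrix folding chaperones, 3 were higher and 1 was lower, against 14.1% and 13.5% over all genes. Hspd1, which encodes the barrel-shaped chaperonin Hsp60, had 8638, 8428, 9303 and 8989.6 normalised counts in controls and 12086, 12204, 12769 and 12971 in Pcx L-/- mice (0.50, standard error 0.11, adjusted p = 0.009). Hspe1, which encodes its lid Hsp10, had 2051, 2001, 2295 and 1748 in controls and 2787, 2591, 2682 and 2996 in Pcx L-/- mice (0.45, standard error 0.11, adjusted p = 0.0145). Both genes separated without overlap, and only the call of Hspe1 was lost with a mouse left out, Pcx L-/- mouse 4 (0.41, adjusted p = 0.0545). Dnaja3, a J-domain cochaperone of mortalin, had 2358, 2372, 2728 and 2846 in controls and 3601, 3632, 3919 and 3485 in Pcx L-/- mice (0.51, standard error 0.11, adjusted p = 0.00768). Trap1, the Hsp90 of the matrix, was the only gene of the set called lower, with 2866, 2639.6, 2943 and 3023 in controls and 2686, 1978, 2114 and 2055 in Pcx L-/- mice (-0.38, standard error 0.12, adjusted p = 0.0411). Pcx L-/- mouse 1 lay inside the control range of Trap1, and without it the difference was -0.49 (adjusted p = 0.00331). The call was lost without control mouse 1, 3 or 4 or without Pcx L-/- mouse 2, 3 or 4 (adjusted p from 0.0604 to 0.127).

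**Figure D2:**
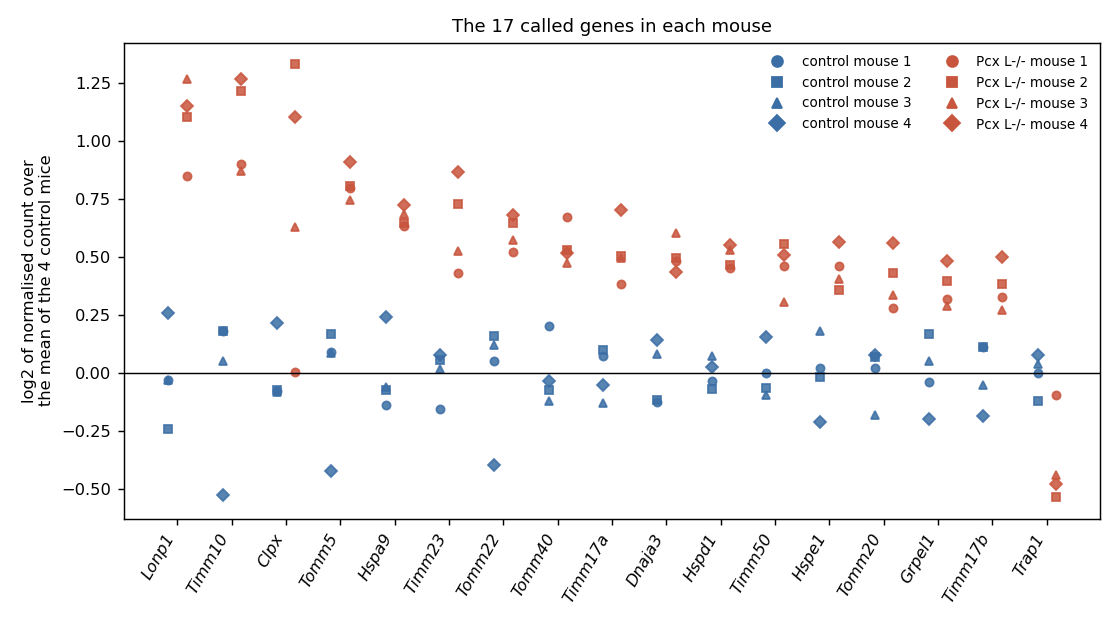
Log2 of the normalised count over the control mean for the 17 called genes, with 1 point per mouse, controls in blue and Pcx L-/- mice in red. Red points lie above all blue points in 15 genes, while Clpx and Trap1 overlap because Pcx L-/- mouse 1 falls among the controls.

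Hspd1 and Hspe1 lie head to head on chromosome 1 (GRCm38, chr1:55077835-55088243 on the minus strand and chr1:55088132-55091307 on the plus strand), and 112 exonic bases are shared between opposite strands in GENCODE M21, or 4.24% of Hspd1 and 7.6% of Hspe1. The 30 bases below are read from RefSeq on the strand of Hspe1, within the 250 bases before its start (GRCm38.p6, chr1:55088053-55088082), and are covered by the first exon of an alternative Hspd1 transcript in GENCODE. They are shown because both genes rose and the stretch holds GAANNTTC once and TTCNNGAA at 2 places, the inverted units of a heat shock element in both orders, overlapping one another and marked in capitals.
Hspe1: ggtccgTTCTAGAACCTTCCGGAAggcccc

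Short motifs were searched on both strands of the RefSeq promoter windows, which run from 250 bases before to 50 after each start, and 37 of the 44 genes had a window. GAANNTTC was found in 3 of the 37 genes (Hspd1, Hspe1 and Timm9) and in 9.04% of the 27025 genes in the table. TTCNNGAA was found in 10 of the 37 genes and in 9.6% of all genes, and 5 of those 10 were called higher, where 15 of the 37 were. Hspd1 and Hspe1 hold the same bases and are not independent. CGCATGCG, the core of the NRF1 motif, was in Clpx and Timm13 (2.07% of all genes), and the cyclic AMP response element TGACGTCA in Trap1 (2.03% of all genes). The composite C/EBP-ATF element TGATGCAAT was in 0 of the 37 genes (0.222% of all genes), as was its relaxed form TGATGNAAN (4.5%), which says only that these letters are not in these windows. Stretches upstream of the start, without bases that GENCODE assigns to an exon, are shown for genes whose change the text turns on, with the match in capitals: Tomm22 with TTCNNGAA (chr15:79670768-79670860, plus strand), Clpx with CGCATGCG (chr9:65294160-65294259, plus strand), Trap1 with TGACGTCA (chr16:4077828-4077910, minus strand), and Lonp1, the gene with the largest rise and no match (chr17:56626904-56627003, minus strand). A match is a description of the letters and not a bound site.
Tomm22: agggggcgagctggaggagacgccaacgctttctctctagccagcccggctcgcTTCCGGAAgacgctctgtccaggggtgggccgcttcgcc
Clpx: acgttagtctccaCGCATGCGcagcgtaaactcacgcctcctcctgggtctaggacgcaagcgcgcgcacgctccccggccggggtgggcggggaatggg
Trap1: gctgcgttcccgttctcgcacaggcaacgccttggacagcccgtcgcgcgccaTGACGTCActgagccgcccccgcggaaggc
Lonp1: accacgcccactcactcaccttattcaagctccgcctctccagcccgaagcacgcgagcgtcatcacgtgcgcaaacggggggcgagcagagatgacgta

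Of the 8 protease genes, 2 were higher, against 14.1% over all genes. Both act in the matrix, as does Clpp, which was not called. Lonp1, the ATP-dependent Lon protease that degrades oxidised and misfolded proteins, had 2806, 2424, 2805 and 3433 normalised counts in controls and 5159.6, 6158, 6909 and 6364 in Pcx L-/- mice. Every Pcx L-/- mouse was thus far above every control, a 2.15-fold change that was called in all 18 alternative settings (adjusted p from 1.98e-11 to 0.0049). Clpx, the unfolding ATPase of the ClpXP protease, had 1388, 1391, 1383 and 1702 in controls and 1469, 3689.7, 2266 and 3152 in Pcx L-/- mice. Mice 2, 3 and 4 were well above the controls, whereas mouse 1 lay within their range (0.85, standard error 0.24, adjusted p = 0.0208). Mouse 1 also differed from mice 2, 3 and 4 in number series. With that series as a covariate in edgeR the change of Clpx was 0.67 (adjusted p = 0.0371). Without Pcx L-/- mouse 1 the change of Clpx was 1.05 (adjusted p = 5.16e-04), and its call was lost without control mouse 1 or 3 or Pcx L-/- mouse 2 or 4 (adjusted p from 0.0571 to 0.0686). Clpp, the peptidase that works with Clpx, had 806 ± 82.1 (SD, n = 4) in controls and 906 ± 61.6 (SD, n = 4) in Pcx L-/- liver (0.17, adjusted p = 0.263).

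The proteases of the inner membrane and the intermembrane space were not called. Afg3l2 (0.19, adjusted p = 0.17) and Spg7 (-0.22, adjusted p = 0.17), the subunits of the matrix-facing AAA protease, had fitted differences of opposite sign. Yme1l1, the protease facing the other side of the membrane, stood at 0.12, Oma1, which is activated by loss of membrane potential, at 0.14, and Htra2, a serine protease between the membranes, at 0.18. The prohibitins, ring-forming scaffolds of the inner membrane that bind the AAA protease, were also not called. Phb had 1583, 1679.5, 1711 and 2119.7 normalised counts in controls and 2043, 2238, 2039 and 2353 in Pcx L-/- mice, so that only control mouse 4 reached the Pcx L-/- range (0.29, adjusted p = 0.0914). Without that mouse, or with upper-quartile factors, Phb was called higher. Phb2 had 2909 ± 157 (SD, n = 4) in controls and 2947 ± 248 (SD, n = 4) in Pcx L-/- liver (0.02, adjusted p = 0.919).

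Levels between genes can be set side by side on the FPKM scale, which divides by gene length and library total but not by TMM factors. In controls the chaperones led, with Hspa9 at 198 ± 12.6, Hspd1 at 195 ± 10.8 and Hspe1 at 112 ± 16.9 FPKM (SD, n = 4 each), and the first and second did not differ beyond their spread. Trap1 (65.9 ± 2.81), Phb2 (65.4 ± 4.15), Timm23 (58.9 ± 4.05), Phb (52.4 ± 3.96), Dnaja3 (51.8 ± 3.19) and Lonp1 (51.4 ± 4.69) followed. In Pcx L-/- liver Lonp1 stood at 136 ± 25.5 and Timm23 at 113 ± 21.8, above Trap1 at 61.4 ± 3.44. Of the 21 genes with the higher control FPKM, 9 were called higher and 1 lower, and of the 20 others, 7 and 0, with median log2 fold changes of 0.30 and 0.20. Over all genes tested, 14.1% were higher and 13.5% lower, and these shares were not split by level. The whole set took 0.31% to 0.335% of counted reads in controls and 0.454% to 0.573% in Pcx L-/- mice, a share that follows what else is in the library.

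Pairs of genes were compared as ratios within each mouse, which need no scaling between libraries. Some pairs encode products that work together, and others are paralogues, such as Tomm40 and Tomm40l, or different proteases, such as Lonp1 and Clpp. Of 14 pairs, 5 had ratios that did not overlap between genotypes, each with p = 0.0286 by an exact two-sided permutation test, the smallest p that 4 mice against 4 allow. After Benjamini-Hochberg adjustment over the 14 pairs these became 0.08, the smallest value that 5 pairs at that p can reach. No pair passed 0.05, for which more of the pairs would have had to separate. The ratio of Lonp1 to Clpp was 3.49, 3.41, 3.51 and 3.77 in controls and 5.5, 6.94, 8.34 and 6.57 in Pcx L-/- mice, a log2 difference of 0.93 (standard error 0.13). The ratio of Timm9 to Timm10 was 1.15, 1.23, 1.69 and 1.21 in controls and 0.802, 0.722, 0.734 and 0.616 in Pcx L-/- mice, so Timm10 reads were the fewer of the pair in every control and the more in every Pcx L-/- mouse (-0.87). Within the Timm8 and Timm13 hexamers, ratios to Timm13 moved by -0.16 for Timm8a1 and by 0.17 for Timm8b. Tomm40 to Tomm40l moved by 0.85, with the overlap of Tomm40l and Nr1i3 given above. In contrast, Hspd1 to Hspe1 was 4.21, 4.21, 4.05 and 5.14 in controls and 4.34, 4.71, 4.76 and 4.33 in Pcx L-/- mice, a log2 difference of 0.05 (p = 0.629, exact permutation test). The other 8 pairs overlapped between genotypes, and their p ranged from 0.0571 (Afg3l2 to Spg7, 0.41) to 0.943 (Yme1l1 to Oma1, -0.03).

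**Figure D3:**
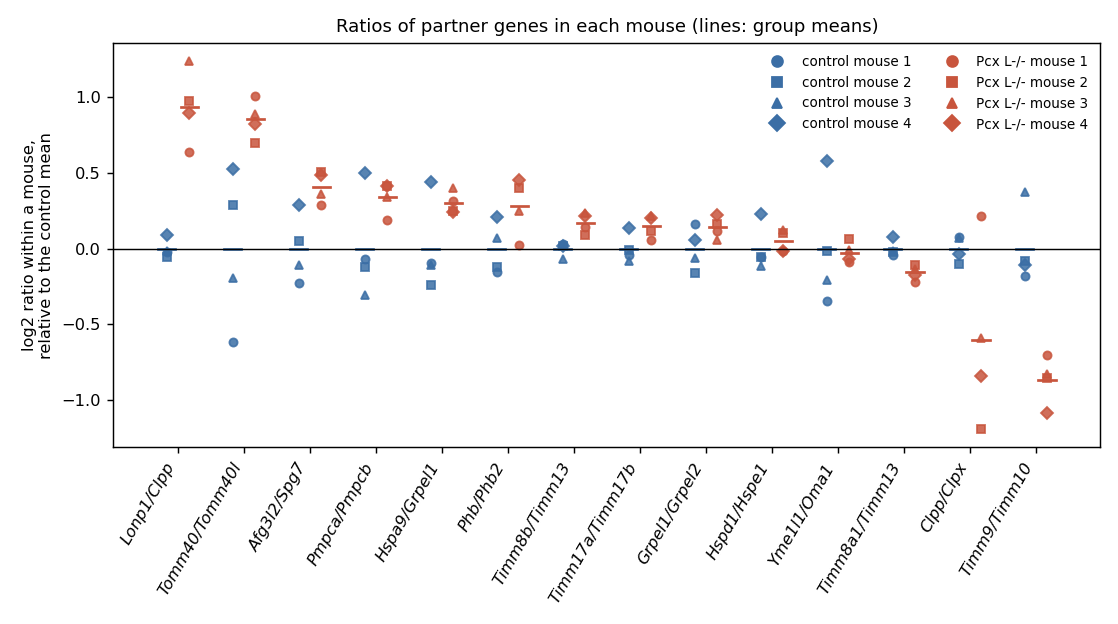
Log2 ratio of the read counts of 14 gene pairs within each mouse, relative to the control mean, with 1 point per mouse and a line for each group mean. Lonp1/Clpp (0.93) and Tomm40/Tomm40l (0.85) lie above all controls and Timm9/Timm10 (-0.87) below them, while Hspd1/Hspe1 (0.05) overlaps.

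Other genes of the same pathways were counted from lists of genes outside the set. Among 19 genes listed as further import factors, 6 were higher and 2 lower (14.1% and 13.5% over all genes), with a median of 0.16. The higher ones included Hscb (0.86, adjusted p = 0.0114), a cochaperone of iron-sulphur cluster transfer rather than of import. They also included the disulphide relay of the intermembrane space, Gfer (0.78, adjusted p = 0.00296) and Chchd4 (0.68, adjusted p = 0.0114), which oxidises small TIM proteins. Pam16, a motor subunit, was also higher (0.59, adjusted p = 0.0449), but its groups overlapped and the call was lost without control mouse 1, 2 or 4 or Pcx L-/- mouse 2 or 4 (adjusted p from 0.0724 to 0.131). Mtx3, a metaxin of the outer membrane sorting machinery, was lower (-0.81, adjusted p = 7.35e-04), as was Mipep, the intermediate peptidase (-0.36, adjusted p = 0.0439), whose call was lost in 14 of 18 settings.

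Among 14 genes of inner membrane organisation and quality control, 4 were higher and 1 lower (median 0.13). Chchd6, of the cristae-organising MICOS complex, stood at 0.80 (adjusted p = 0.0348, lost in 7 of 18 settings), the membrane ATPase Atad3a at 0.67 (adjusted p = 0.00315), the prohibitin-related scaffold Stoml2 at 0.49 (adjusted p = 0.00564) and the rhomboid protease Parl at 0.37 (adjusted p = 0.0129). Pink1, the kinase whose import fails in depolarised mitochondria, was lower, at 2649 ± 405 (SD, n = 4) normalised counts against 4674 ± 475 in controls (-0.82, adjusted p = 0.00209). Of 15 cytosolic chaperones tested, 4 were higher and 0 lower at the threshold (median 0.14): Hspb1, a small heat shock protein (1.61, adjusted p = 0.00695, groups overlapping), Dnaja4, a J-domain protein (0.85, adjusted p = 0.00838), and the Hsp90 cochaperones Ahsa1 (0.52, adjusted p = 0.00682) and Cdc37 (0.34, adjusted p = 0.0236, lost in 6 of 18 settings). Over these 3 lists, 14 of 48 genes tested were higher and 3 lower, against 14.1% and 13.5% of all genes tested. Without Pcx L-/- mouse 2 or mouse 4 the count of higher genes was 9, and without Pcx L-/- mouse 1 the count of lower genes was 7.

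Larger groups of mitochondrial genes outside the set gave different counts. Of 76 mitochondrial ribosomal protein genes tested, 29 were higher and 0 lower, with a median of 0.21 (1 was lower at an unadjusted edgeR p under 0.05, and 1 by DESeq2). Of 37 genes named as complex I subunits, 0 were higher and 1 was lower, with a median of -0.12 (0 were higher at an unadjusted p under 0.05 and 0 by DESeq2). Both lists were taken by symbol, the second as Nduf followed by a, b, c, s or v and a number. Whether each product is part of complex I was not checked. The same edgeR test gave every count at the threshold, with 14.1% of all genes higher and 13.5% lower. Differences between lists were not tested.

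**Figure D4:**
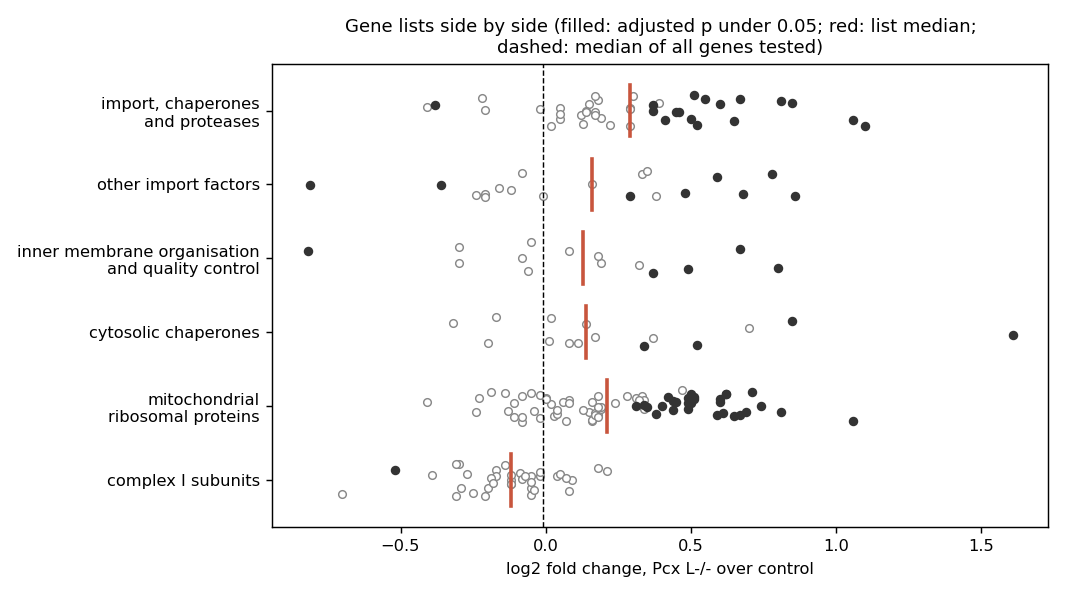
Log2 fold changes of the 41 genes and of 5 other lists, 1 point per gene, filled for an adjusted p under 0.05, with red lines at the list medians and a dashed line at the median of all genes tested (-0.01). The medians are 0.29 for the 41 genes, 0.21 for mitochondrial ribosomal proteins and -0.12 for genes named as complex I subunits.

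Counts of calls depended on how libraries were scaled. With scaling by library size alone, the median of all genes tested shifted to 0.28, 29.7% of all genes were called higher, and 81.8% of calls were higher, against 51.1% with TMM factors. Of the 41 genes, 30 were then higher and 0 lower, at a median of 0.57. On log2(FPKM + 1) and log2(FPKM + 0.1), which share that scaling, 30 genes were higher as well. Relative to the median of all genes in the same setting, the median of the 41 genes lay between 0.22 and 0.33 in every setting. The direction of each of the 17 called genes was the same in all 18 alternative settings, and 11 of the 17 kept their call in each.

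**Figure D5:**
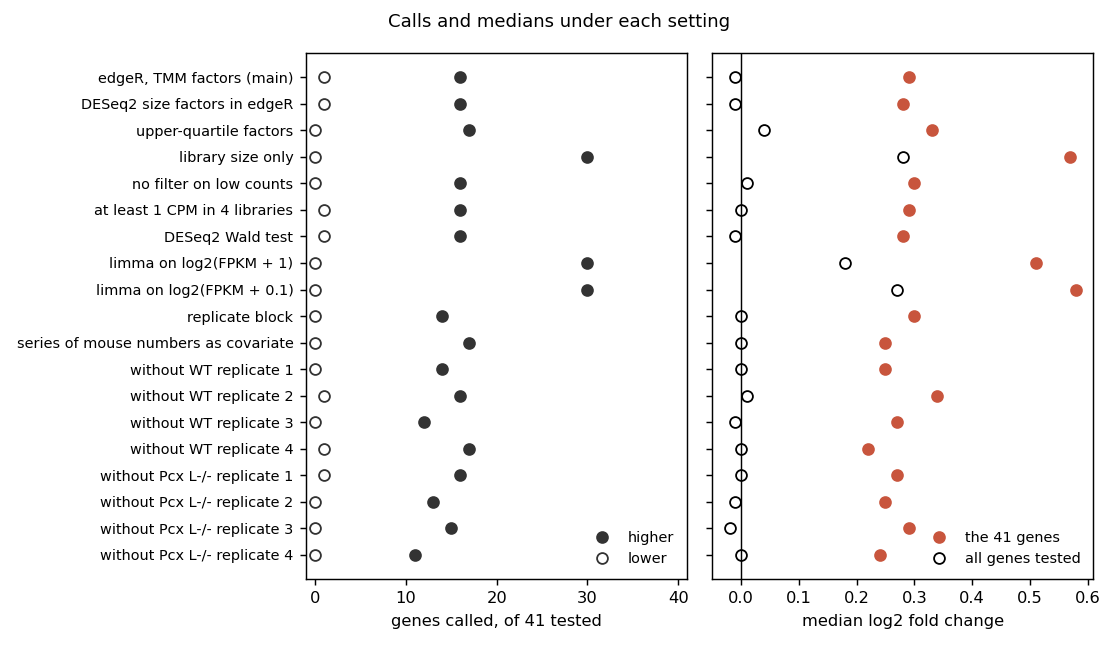
Number of the 41 genes called higher and lower (left) and median log2 fold change of the 41 genes and of all genes tested (right) in the main analysis and 18 alternatives. Scaling by library size and the FPKM settings shift both medians to the right together, and the other settings call 11 to 17 genes higher.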

How the data were processed

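Total RNA was extracted from flash-frozen liver, and libraries were prepared and sequenced by a company. The authors deposited raw read counts per Ensembl gene and FPKM values derived from the same counts. The submitters' processing notes name STAR 2.5, HTSeq 0.6.1, DESeq2 and the build mm10. The sources used here do not give the annotation release, the gene lengths or the use of strand. The 44 genes and all gene lists were chosen with earlier results of these data known.

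Counts were analysed in edgeR 4.0.16 (R 4.3.3) with TMM factors, filterByExpr (minimum count 10, minimum total 15), genotype as the only term and all 8 mice. The quasi-likelihood F test was adjusted by Benjamini-Hochberg over 13168 genes at 0.05, with 6 residual degrees of freedom and a biological coefficient of variation of 0.181. Standard errors are approximate and come from the F statistic. Every gene of the set was described, and of the other lists at most the 4 genes with the largest change in each direction were named. Genes overlapping a gene of the set were named after their values were seen. Results were recomputed under other scalings and filters, with DESeq2 1.42.0, with limma 3.58.1 on log2(FPKM + 1) and log2(FPKM + 0.1), with the replicate number as a block, with a covariate for the numbering series of the mice, and without each mouse in turn. Scripts were tested on simulated counts. Libraries held 12016242 to 20023108 counted reads, which limits precision where a gene had few reads.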

Additional observations from a re-analysis of the deposited data

Results flagged for a closer look

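With 4 mice per group, the highest or lowest mouse was set against the rest in 82 groups of the 41 genes, by its gap to the nearest mouse over the range of the group against the critical value of Dixon's test. It was exceeded in 5 groups, and chance alone exceeds that value in about 1 in 20. In 4 of the 5 the mouse was control mouse 4, which had the fewest reads. It was low in Tomm34 (89.9 normalised counts against 166 to 187, ratio 0.834), in Tomm5 (204 against 291 to 308, ratio 0.867) and in Tomm7 (278 against 539.8 to 614, ratio 0.837). The same mouse was high in Clpx (1702 against 1383 to 1391, ratio 0.972). Pcx L-/- mouse 1 was high in Phb2 (3318 against 2795 to 2838, ratio 0.912).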

How the results depend on the processing

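Of 18 alternatives, 15 called between 11 and 17 of the 41 genes higher. Scaling by library size only, log2(FPKM + 1) and log2(FPKM + 0.1) each called 30, with medians of 0.57, 0.51 and 0.58. The single lower call (Trap1) became 0 under these 3, under upper-quartile factors, without a filter, with the replicate block and with the series of mouse numbers. With 1 mouse left out at a time, 11 to 17 genes were higher, 0 to 1 lower, and the median was 0.22 to 0.34.

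Of the 48 genes in the lists of other import factors, inner membrane organisation and cytosolic chaperones, 14 were higher in the main analysis. Library size only gave 26, log2(FPKM + 1) and log2(FPKM + 0.1) 24 each, the replicate block 9, and leaving out 1 mouse 9 to 15. The 3 lower ones became 5 by DESeq2 and 2 to 7 with 1 mouse left out.

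Labels give both genotypes replicate numbers 1 to 4, but nothing says that equal numbers pair the mice. Deviations of same-numbered mice correlated at 0.101, -0.131, -0.101 and -0.0703, and only replicate 1 correlated best with its own number. With the replicate block 14 of the 41 genes were higher and 0 lower, at a median of 0.30, and Grpel1 (adjusted p = 0.0754), Timm17b (0.0608) and Trap1 (0.0684) lost their calls. Timm10b had the fewest reads of the genes tested, 353 in all. The causes of these changes were not tested, and leaving out 1 mouse also lowers the number of mice.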
